A study of Mus musculus with 96 samples.

Results

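Collagens are the fibrous proteins of the extracellular matrix. Their genes were taken as all those whose symbol in the array annotation reads Col, a number, the letter a and a second number, which gave 42 of the 19505 genes measured. Of these, 11 encode chains of fibril-forming collagens, 8 encode chains of basement membrane collagens and 23 encode other chains: 8 of beaded filaments or related, 8 fibril-associated, 3 network-forming and 4 transmembrane. The study treated C57BL/6JOlaHsd mice for 28 days with a daily subcutaneous injection of risperidone at 1 mg/kg, olanzapine at 3.5 mg/kg, or vehicle, which was saline with DMSO and Tween 20. Both drugs are second-generation antipsychotics, and all mice ate standard chow. Gonadal (visceral) fat, pancreas, liver and striatum were hybridized to mouse Clariom S arrays, with 8 mice per treatment and tissue, of which 4 were male and 4 female, and 96 arrays in all. The numbers in the sample titles name the mice. Both drug comparisons share the same 8 vehicle-treated mice of a tissue, and the doses of the drugs differ.

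A collagen molecule is a helix wound from several chains, which 1 gene or different genes can encode. Fibroblasts, stellate cells, smooth muscle cells and pericytes make most of the type I, III and V collagen that forms the fibrils of connective tissue. Type IV, XV and XVIII collagens lie in the basement membranes beneath endothelium and epithelium and around adipocytes, and type VI collagen forms beaded filaments that are abundant in fat. In the liver, activated stellate cells deposit fibrillar collagen during scarring.

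The results turn on a few genes, and the windows at their starts are shown so that the genes can be placed in the genome. The windows come from RefSeq on build GRCm38.p6 and run from 250 bases before to 50 bases after a transcript start. Such a window was found for 34 of the 42 genes. Capitals mark 3 motifs searched on both strands, none of which contains another: the TATA box with the letters TATAAA, the CCAAT box with the letters CCAAT, and the GC box with the letters GGGCGG. The TATA box was present in any window of 14.7% of the 34 genes and in 13.6% of all 32851 windows of this length, the CCAAT box in 35.3% and 37.4%, and the GC box in 61.8% and 35.7%. Some genes have more than 1 window, so that the shares are not counted alike. A match is a description of the letters only. The first 4 windows belong to the genes that differed between the sexes in liver: Col1a2 at chr6:4505368-4505667 on the + strand, Col3a1 at chr1:45311288-45311587 on the + strand, Col27a1 at chr4:63215162-63215461 on the + strand and the first of 2 windows of Col18a1 at chr10:77166481-77166780 on the - strand. The fifth is the stretch of 78 bases at chr8:11312777-11312854, read on the + strand, which the windows of the divergently transcribed Col4a1 and Col4a2 have in common.
Col1a2: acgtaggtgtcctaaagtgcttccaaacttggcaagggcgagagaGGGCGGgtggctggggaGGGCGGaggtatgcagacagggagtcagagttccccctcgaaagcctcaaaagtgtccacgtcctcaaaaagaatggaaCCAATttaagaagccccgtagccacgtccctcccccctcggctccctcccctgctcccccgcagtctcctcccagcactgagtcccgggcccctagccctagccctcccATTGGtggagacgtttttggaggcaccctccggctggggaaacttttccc
Col3a1: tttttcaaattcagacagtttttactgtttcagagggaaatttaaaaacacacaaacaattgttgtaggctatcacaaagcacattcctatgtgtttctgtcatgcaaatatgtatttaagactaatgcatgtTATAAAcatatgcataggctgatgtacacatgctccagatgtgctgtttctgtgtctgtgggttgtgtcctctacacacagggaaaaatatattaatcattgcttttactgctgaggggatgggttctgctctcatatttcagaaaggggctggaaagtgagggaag
Col27a1: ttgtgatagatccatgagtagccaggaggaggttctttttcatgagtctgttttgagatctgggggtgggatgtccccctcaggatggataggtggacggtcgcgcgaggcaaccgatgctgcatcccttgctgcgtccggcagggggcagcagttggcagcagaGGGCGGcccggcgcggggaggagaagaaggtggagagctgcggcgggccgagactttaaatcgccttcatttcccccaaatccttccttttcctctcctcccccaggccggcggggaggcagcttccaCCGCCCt
Col18a1: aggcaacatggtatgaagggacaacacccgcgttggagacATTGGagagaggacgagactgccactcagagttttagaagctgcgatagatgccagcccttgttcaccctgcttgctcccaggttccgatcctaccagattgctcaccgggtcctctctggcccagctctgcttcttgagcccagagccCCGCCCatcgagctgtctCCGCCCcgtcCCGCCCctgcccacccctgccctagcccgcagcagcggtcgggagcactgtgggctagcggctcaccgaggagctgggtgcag
Col4a1 and Col4a2: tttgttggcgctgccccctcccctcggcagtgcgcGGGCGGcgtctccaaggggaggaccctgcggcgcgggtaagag

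The arrays were checked before any comparison. Each tissue carried the markers of its own cells: Adipoq, an adipocyte hormone, lay between 14.13 and 18.67 in fat, Prss2, a trypsinogen of acinar cells, at 14.22 or more in pancreas, Alb, the albumin gene, at 19.69 or more in liver, and Ppp1r1b, the DARPP-32 gene of striatal neurons, between 11.41 and 16.04 in striatum. All array values in the text are log2 signals. Some arrays also carried markers of a neighbouring tissue. In fat, the mean of 5 measured epididymis markers of 7 listed lay between 18.64 and 18.85 in 3 risperidone-treated males (M4, M5 and M23), against 6.96 to 11.86 in the other 21 arrays, and the mean of 7 adipocyte markers in these 3 was 12.13 to 12.73, against 14.0 to 16.1 elsewhere. In pancreas, the mean of 6 hepatocyte markers was above 11 in 4 arrays, with 16.22 in risperidone-treated female F4. In striatum, the mean of 6 choroid plexus markers was above 10 in 7 arrays, 5 of them from risperidone-treated mice. These arrays are kept in the main results. Values without them stand beside for part of the collagen results, and related genes are given with all arrays only. Fewer cells of a type and less RNA per cell cannot be told apart in such bulk samples. Arrays of fat and pancreas were the more variable: taking for each array its median correlation with the rest of the tissue, the lowest was 0.797 in fat and 0.647 in pancreas, against 0.971 in liver and 0.977 in striatum. The tissues were labelled with different kits and were not compared with each other.

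No collagen gene passed the test in any of the 12 comparisons between treatments. A gene was called at a Benjamini-Hochberg adjusted p under 0.05 in limma, over all 19505 genes of a tissue, with sex as a term. The share of all genes called was 0.0% in fat and 0.0% in pancreas for each drug against vehicle and for olanzapine against risperidone. In liver it was 0.041% for risperidone against vehicle, 0.0205% for olanzapine against vehicle and 0.0564% for olanzapine against risperidone. In striatum it was 0.0% for each drug against vehicle and 4.86% for olanzapine against risperidone. At an unadjusted p under 0.05, each count of collagen genes is given with the share over all genes. For risperidone against vehicle, 1 collagen gene in fat (2.38%, against 9.03% of all genes), 2 in pancreas (4.76% against 3.24%), 1 in liver (2.38% against 5.4%) and 3 in striatum (7.14% against 5.4%) had such a p. For olanzapine against vehicle it was 1 in fat (2.38% against 5.46%), 4 in pancreas (9.52% against 8.24%), 3 in liver (7.14% against 6.56%) and 5 in striatum (11.9% against 10.5%). Between olanzapine and risperidone it was 4 in fat (9.52% against 9.23%), 2 in pancreas (4.76% against 4.02%), 3 in liver (7.14% against 7.76%) and 3 in striatum (7.14% against 19.1%). No class of collagen had a median above 0 in all 4 tissues, or below 0 in all 4, under either drug, as the map of fold changes shows.

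**Figure D1:**
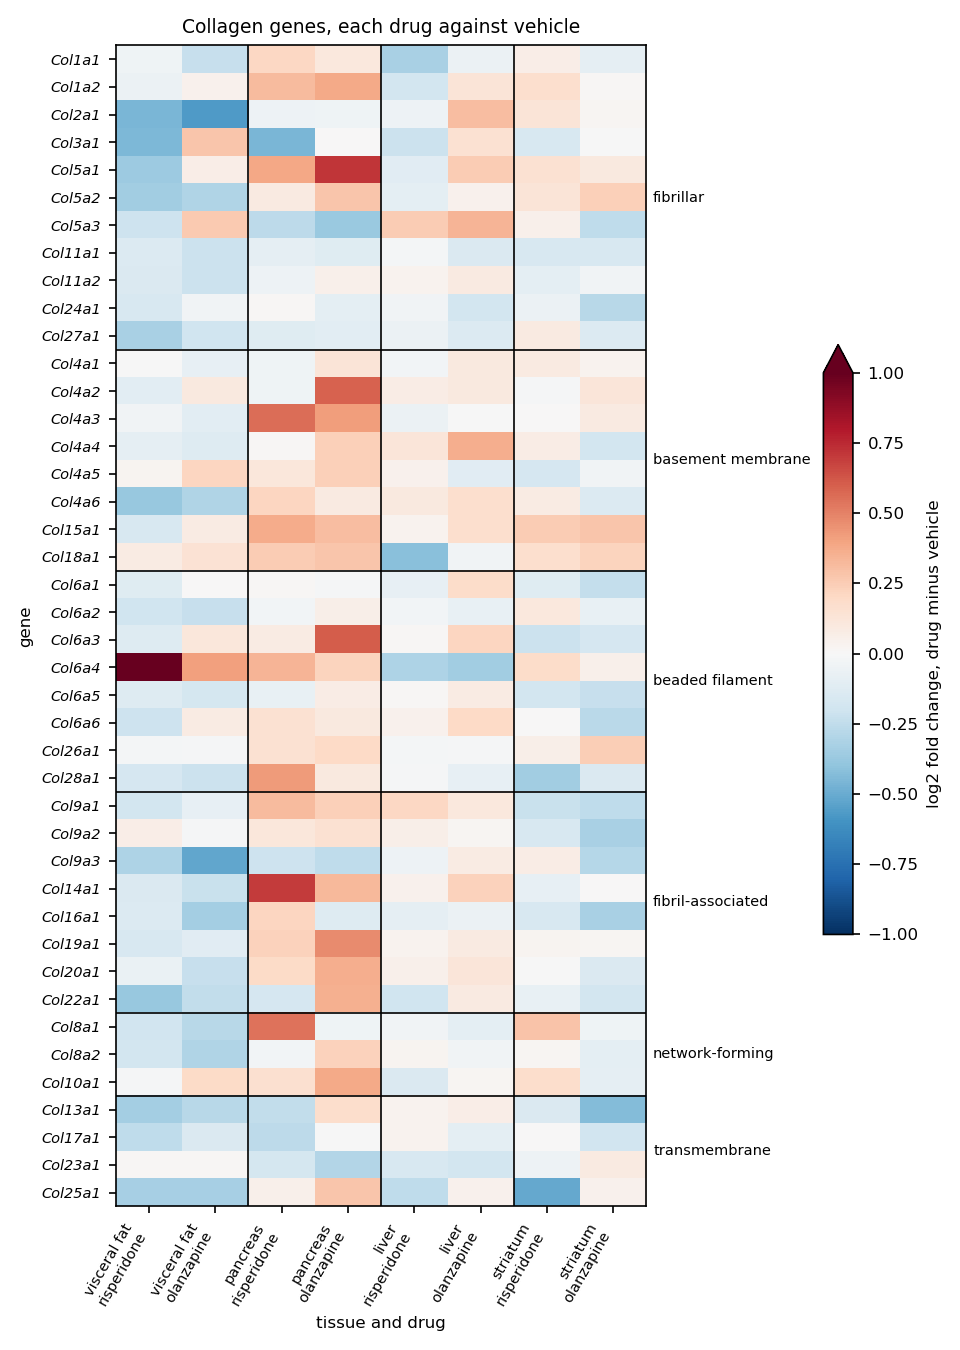
Log2 fold changes of the 42 collagen genes (rows, by class) for each drug minus vehicle in 4 tissues (columns), with 8 mice per group. Red is higher and blue lower under the drug, and Col6a4 in fat under risperidone, at 2.01, lies beyond the colour scale.

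In visceral fat under risperidone, 37 of the 42 collagen genes had a lower mean than under vehicle, with a median log2 fold change of -0.15, against -0.04 over all genes. The 11 fibrillar genes were all on the lower side, with a median of -0.21, and 6 of 8 basement membrane genes, with a median of -0.06. Without the 3 risperidone-treated males with high epididymis markers, 12 of 42 were lower, the median was 0.07, and 7 of the 11 fibrillar genes were higher. In that set M24 was the only risperidone-treated male left. Without all 5 arrays with epididymis markers above 11, 23 of 42 were higher with a median of 0.03. Of the 11 fibrillar genes 5 were higher (median -0.03), and of the 8 basement membrane genes 4 were (median -0.02). The 5 arrays included all 4 risperidone-treated males, so only females were left in that group. The plot of fold changes with all mice and without the 3 males shows how far the genes moved. Among females the median was 0.06, with 25 of 42 genes higher, and among males it was -0.37, with 4 of 42 higher.

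**Figure D2:**
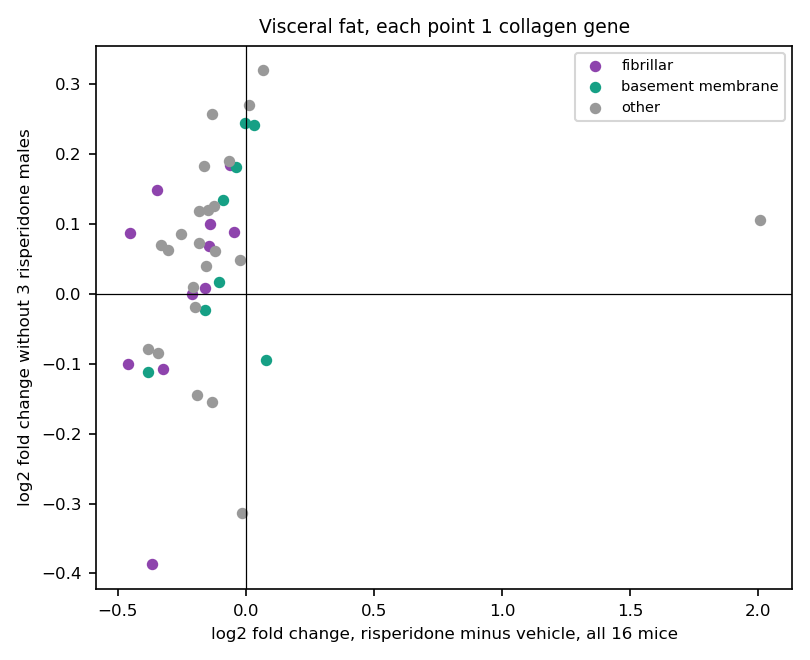
Log2 fold change of each collagen gene for risperidone minus vehicle in visceral fat, with all mice (horizontal axis) and without 3 risperidone-treated males with high epididymis markers (vertical axis); each point is 1 gene, coloured by class. Most points lie left of 0 on the horizontal axis and above 0 on the vertical axis, and Col6a4 stands at 2.01 and 0.10.

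The gene with the lowest p in this comparison was Col6a4, which encodes a chain of type VI collagen. It ranged from 6.26 through a median of 8.15 to 13.04 in risperidone-treated mice and from 6.52 through 7.42 to 8.18 in vehicle-treated mice. The 3 marked males held 13.04, 12.57 and 12.63, and no other risperidone-treated mouse was above 8.31. The log2 fold change was 2.01 ± 0.76 (SE, n = 8 mice each; unadjusted p = 0.0147 and adjusted p = 0.476, limma), and it was 0.10 ± 0.52 without these 3 arrays. The part of the epididymis markers in this difference was not tested. In olanzapine-treated fat Col6a4 ranged from 6.96 through 7.48 to 10.89. The single high value came from female F25, whose epididymis marker mean, 6.96, was the lowest of all 24 arrays.

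**Figure D3:**
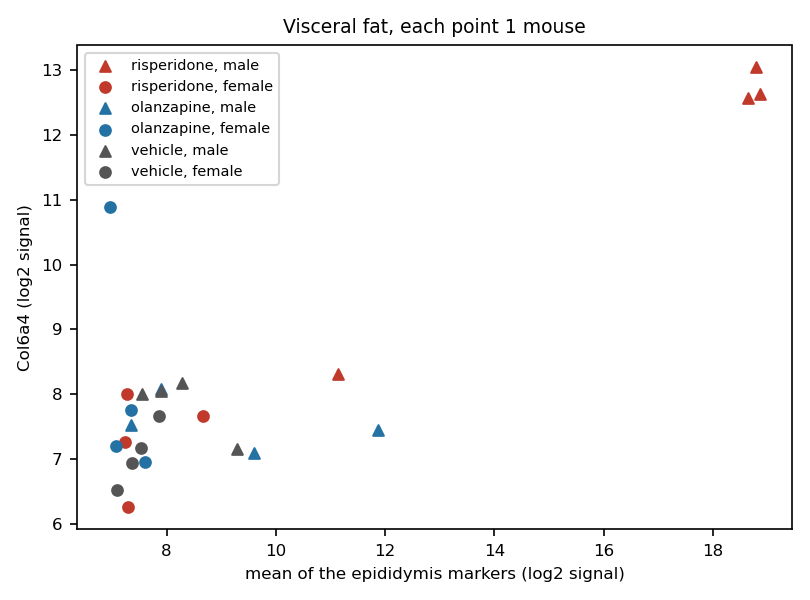
Col6a4 (vertical axis, log2 signal) against the mean of the epididymis markers (horizontal axis, log2 signal) in visceral fat; each point is 1 mouse, triangles are males and circles females. The 3 risperidone-treated males at 18.64 to 18.85 on the horizontal axis are also the highest for Col6a4, followed by 1 olanzapine-treated female.

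Among the fibrillar genes of fat, Col3a1, the type III chain, spread the more widely under risperidone, with an SD of 0.89 against 0.18 under vehicle. It ranged from 6.23 through 7.81 to 8.69 in risperidone-treated mice and from 7.72 through 8.08 to 8.27 in vehicle-treated mice. The 3 marked males gave the 3 lowest values, 6.9, 6.23 and 6.74, and the groups overlapped. The log2 fold change was -0.45 ± 0.28 (adjusted p = 0.609, limma), and 0.09 ± 0.25 without these arrays. Col5a1, a type V chain that helps start fibrils, ranged from 4.68 through 5.02 to 5.75 in risperidone-treated mice and from 4.8 through 5.36 to 6.15 in vehicle-treated mice. Its difference of -0.37 ± 0.19 was of like size without the 3 arrays, at -0.39 ± 0.22, and did not pass (adjusted p = 0.574). Col1a1 and Col1a2, the type I chains, differed by -0.05 ± 0.16 and -0.06 ± 0.23, with 95% intervals from -0.37 to 0.28 and from -0.53 to 0.41. Col5a2 differed by -0.35 ± 0.25, and by 0.15 ± 0.22 without the 3 arrays. The basement membrane gene Col4a6 differed by -0.38 ± 0.22, by -0.11 ± 0.23 without them and by -0.25 ± 0.21 without M5 alone.

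In fat under olanzapine, 28 of 42 collagen genes were on the lower side of vehicle, with a median of -0.12 against -0.02 over all genes. Col8a1, a network-forming chain made by vascular cells, had the lowest p. It ranged from 5.29 through 5.66 to 5.82 in olanzapine-treated mice and from 5.69 through 5.83 to 6.23 in vehicle-treated mice, so that 6 of 8 olanzapine-treated values were below the whole vehicle range. The log2 fold change was -0.28 ± 0.13 (unadjusted p = 0.042 and adjusted p = 0.783, limma). Col2a1 and Col9a3, chains best known from cartilage, differed by -0.56 ± 0.29 and -0.52 ± 0.28 and did not pass (adjusted p = 0.783 for both). Between olanzapine and risperidone, Col3a1 differed by 0.73 ± 0.28 (adjusted p = 0.368), and by 0.19 ± 0.25 without the 3 marked males.

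The core basement membrane genes were Col4a1, Col4a2, Col15a1 and Col18a1, and the core type VI genes Col6a1, Col6a2 and Col6a3. Col4a6 and Col6a4, given above, were not among them. In fat these core genes had mean differences from vehicle of at most 0.23 either way under both drugs. For Col4a1 the difference from vehicle was -0.00 ± 0.18 under risperidone and -0.09 ± 0.18 under olanzapine, and for Col4a2 it was -0.10 ± 0.13 and 0.10 ± 0.13. Col15a1 differed by -0.16 ± 0.21 and 0.09 ± 0.21, and Col18a1 by 0.08 ± 0.17 and 0.15 ± 0.17. The type VI chains Col6a1, Col6a2 and Col6a3 differed by -0.12 ± 0.15, -0.20 ± 0.19 and -0.13 ± 0.16 under risperidone and by 0.00 ± 0.15, -0.23 ± 0.19 and 0.12 ± 0.16 under olanzapine. Without the 3 marked males Col4a1 differed by 0.24 ± 0.19 under risperidone. None of these passed. The fibroblast markers, 9 of 10 measured, had means of 8.03 to 9.47 in risperidone-treated mice and 8.7 to 9.71 in vehicle-treated mice.

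In the pancreas, 26 of 42 collagen genes stood above vehicle under risperidone, where 52.8% of all genes did. The median was 0.09, against 0.02 over all genes. Under olanzapine 31 of 42 stood above vehicle, where 57.0% of all genes did, with a median of 0.16 against 0.06. The 11 fibrillar genes did not lean that way: 5 were higher under risperidone (median -0.05) and 6 under olanzapine (median 0.01). All 8 basement membrane genes were on the higher side under olanzapine, with a median of 0.26. Col14a1, a fibril-associated chain that binds fibril surfaces, had the lowest p for risperidone. It ranged from 6.43 through 7.0 to 8.21 in risperidone-treated mice and from 5.82 through 6.36 to 6.75 in vehicle-treated mice, and 5 of 8 risperidone-treated values were above the whole vehicle range. This gave a log2 fold change of 0.70 ± 0.22 (unadjusted p = 0.0047 and adjusted p = 0.999, limma). The highest value, 8.21, was that of female F4, whose hepatocyte markers were the highest of all pancreas arrays, and without the 4 arrays with high hepatocyte markers the difference was 0.71 ± 0.23. Col8a1 and Col28a1, the next by p, differed by 0.54 ± 0.23 and 0.43 ± 0.21 (adjusted p = 0.999 for both). Col28a1 differed by 0.18 ± 0.35 among males and 0.68 ± 0.28 among females, and Col8a1 by 0.32 ± 0.21 with array weights.

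Under olanzapine, Col5a1 had the lowest p in the pancreas. It ranged from 4.23 through 4.99 to 6.44 in olanzapine-treated mice and from 3.98 through 4.34 to 4.94 in vehicle-treated mice. The groups overlapped, with 5 of 8 olanzapine-treated values above the whole vehicle range. The difference was 0.71 ± 0.29 (unadjusted p = 0.02 and adjusted p = 0.572, limma) and 0.57 ± 0.27 without the arrays with high hepatocyte markers. It was 1.36 ± 0.33 among males (means of 5.57 under olanzapine and 4.2 under vehicle) and 0.06 ± 0.38 among females (4.61 and 4.55), and the interaction of sex with olanzapine was 1.31 ± 0.49 (unadjusted p = 0.0134 and adjusted p = 0.998, limma). Col19a1, Col4a2 and Col6a3 differed by 0.47 ± 0.21, 0.59 ± 0.27 and 0.61 ± 0.28 and did not pass either. For Col4a2 the difference was 1.05 ± 0.40 among males and 0.13 ± 0.36 among females, with an interaction that did not pass (0.93 ± 0.53, adjusted p = 0.998). The type I chains Col1a1 and Col1a2 differed by 0.10 ± 0.21 and 0.38 ± 0.23 under olanzapine and by 0.21 ± 0.21 and 0.32 ± 0.23 under risperidone. Col3a1 lay the other way under risperidone, at -0.45 ± 0.31 with all arrays and -0.81 ± 0.34 without those with high hepatocyte markers (adjusted p = 0.999 and 1.0). Acinar markers varied widely, from means of 12.63 to 18.61 under risperidone and 11.14 to 18.64 under olanzapine to 12.56 to 18.86 under vehicle. The mean of 7 adipocyte markers ran from 7.5 to 10.74 under risperidone (median 8.07) and from 7.0 to 10.7 under olanzapine (8.36). Under vehicle it ran from 7.85 to 11.41 (9.56). The part of acinar cells and adipocytes in these differences was not tested.

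**Figure D4:**
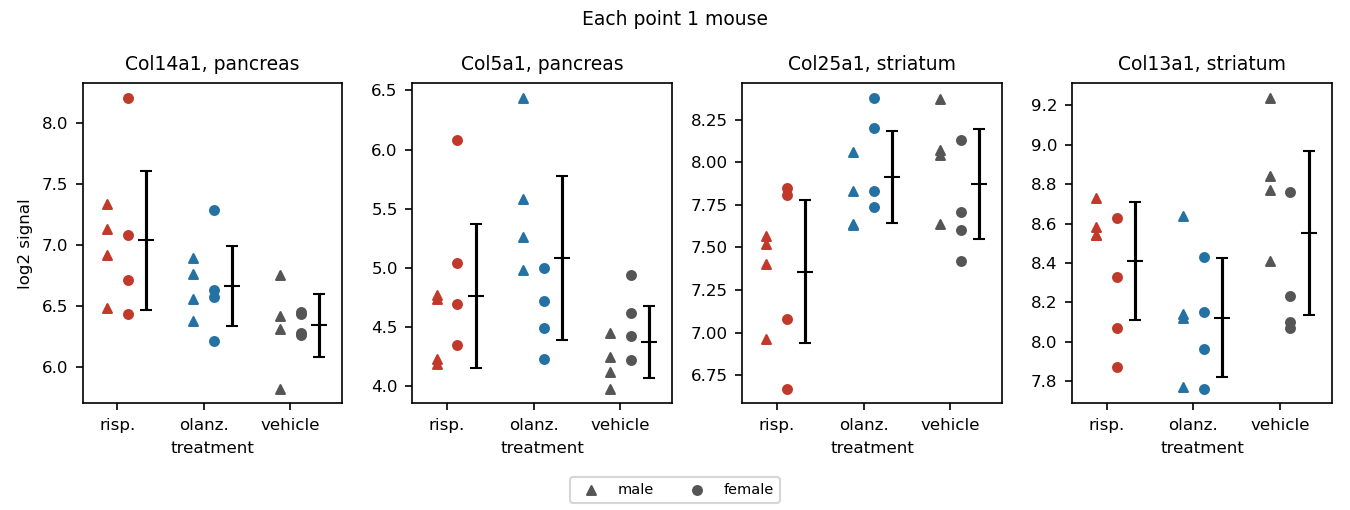
Log2 signal (vertical axis) of Col14a1 and Col5a1 in pancreas and of Col25a1 and Col13a1 in striatum by treatment; each point is 1 mouse (triangles males, circles females), and the bar gives the mean and SD of 8 mice. All 4 genes overlap between the drug-treated and vehicle-treated mice.

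In the liver, risperidone gave a median of -0.02 over the 42 genes (18 higher, 24 lower) and olanzapine 0.07 (26 higher, 16 lower), against -0.00 and 0.01 over all genes. Col18a1, whose product carries endostatin and which hepatocytes express, had the lowest p for risperidone. It ranged from 14.08 through 14.79 to 15.41 in risperidone-treated mice and from 14.61 through 15.2 to 15.73 in vehicle-treated mice, with 2 of 8 risperidone-treated values below the whole vehicle range. This was a difference of -0.42 ± 0.15 (unadjusted p = 0.00873 and adjusted p = 0.652, limma). Col6a4 and Col1a1 differed by -0.31 ± 0.16 and -0.32 ± 0.17 under risperidone. Under olanzapine the 3 lowest p belonged to Col4a4 at 0.36 ± 0.15, Col6a4 at -0.35 ± 0.16 and Col5a3 at 0.34 ± 0.16 (adjusted p = 0.658, 0.728 and 0.75). Under risperidone Col1a1 differed by -0.09 ± 0.21 among males and -0.55 ± 0.26 among females, and without risperidone-treated female F23 by -0.18 ± 0.15, while Col6a4 differed by -0.20 ± 0.14 without that mouse. Under olanzapine Col4a4 differed by 0.14 ± 0.17 among males and 0.59 ± 0.24 among females, and Col5a3 by 0.20 ± 0.14 without olanzapine-treated male M26.

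Between the sexes, 4 collagen genes differed in the liver. Of the 42, 2 were called higher and 2 lower in males than in females, while 6.23% of all genes were called in that comparison. At an unadjusted p under 0.05 there were 6 collagen genes, or 14.3% of them, against 17.5% of all genes. Col1a2, the second type I chain, ranged from 5.9 through 6.54 to 6.88 in 12 males and from 6.6 through 7.24 to 7.63 in 12 females. The sexes overlapped, and 7 males lay below every female. The log2 fold change was -0.72 ± 0.11 (adjusted p = 6e-05, limma), and the mean was lower in males than in females by 0.86 under risperidone, by 0.71 under olanzapine and by 0.58 under vehicle.

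Col3a1 ranged from 7.12 through 7.43 to 7.74 in males and from 7.24 through 8.08 to 8.94 in females. Its log2 fold change was -0.62 ± 0.16 (adjusted p = 0.0133, limma). Within treatments the male minus female difference was -0.03 under risperidone, -1.11 under olanzapine and -0.71 under vehicle, but the interaction of sex with risperidone did not pass (0.69 ± 0.34, adjusted p = 0.991), nor did that with olanzapine (-0.40 ± 0.34, adjusted p = 0.952). The other 2 called genes were higher in males. Col18a1 ranged from 14.72 through 15.32 to 15.77 in males and from 14.08 through 14.9 to 15.42 in females, a log2 fold change of 0.46 ± 0.12 (adjusted p = 0.0199). Col27a1, a fibrillar chain best known from cartilage, ranged from 5.82 through 6.5 to 6.9 in males and from 5.42 through 5.9 to 6.87 in females, with a fold change of 0.56 ± 0.14 (adjusted p = 0.0142). Col1a1, the partner of Col1a2 in type I collagen, was not called (-0.19 ± 0.14, adjusted p = 0.545). These 4 genes were also called when any 1 mouse was left out, and Col14a1 joined them without vehicle-treated male M21 (-0.32 ± 0.09, adjusted p = 0.0293).

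**Figure D5:**
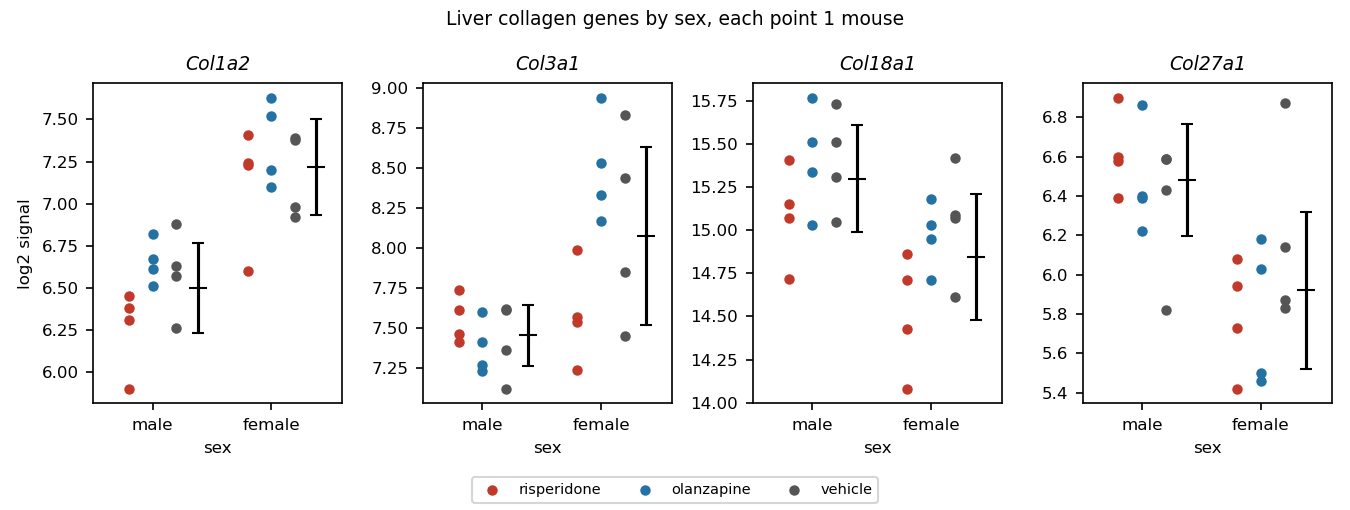
Log2 signal (vertical axis) of the 4 collagen genes called between the sexes in liver, males left and females right; each point is 1 mouse coloured by treatment, and the bar gives the mean and SD of 12 mice. Col1a2 and Col3a1 are lower in males, Col18a1 and Col27a1 higher.

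Other matrix genes also differed between the sexes in the liver. Of all genes, 6.23% were called in this comparison, 1216 in all, and 468 of these were higher in males. Among 15 measured genes for proteoglycans and partners that bind fibrils, 6 were called lower in males and none higher, with a median of -0.44. Sparc, a collagen-binding glycoprotein, differed by -1.25 ± 0.20 (adjusted p = 6.28e-05), Nid1, which links basement membrane networks, by -0.95 ± 0.16, Dcn, decorin, by -0.84 ± 0.15 and Bgn, biglycan, by -0.83 ± 0.15. Crtap and P4ha2, whose products take part in modifying proline in collagen chains, were lower in males among 15 modification genes (-1.11 ± 0.19 and -0.51 ± 0.14). So were Timp2 and Mmp14 among 12 genes of degradation (-0.70 ± 0.14 and -0.77 ± 0.16). Of 7 receptor genes Itgb1 was called lower, and of 11 genes of TGF-beta signalling Tgfb1 was called lower and Tgfbr2 higher. Markers of non-parenchymal cells moved in the same comparison: all 5 measured macrophage markers were called lower in males, with marker means of 9.18 to 9.72 in males and 9.54 to 10.83 in females, and so were 3 of 6 stellate cell markers (6.78 to 7.38 in males, 7.16 to 7.89 in females) and 2 of 7 endothelial markers (7.3 to 7.75 in males, 7.43 to 8.18 in females). The erythroid markers, 2 of 6 measured, went the other way, with 1 called higher in males and means of 8.92 to 9.68 in males and 7.6 to 8.48 in females, which did not overlap. Hepatocyte marker means were alike in range, 19.51 to 19.68 in males and 19.5 to 19.65 in females. Most of these markers lay close to the top signal at which the brightest pancreas markers also stopped. Their means therefore cannot tell whether the share of hepatocytes differed between the sexes. The part of these cells in the collagen differences was not tested.

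In the other tissues no collagen gene was called between the sexes. The share of all genes called was 4.6% in fat, 0.108% in pancreas and 0.39% in striatum, and 3, 1 and 4 collagen genes had an unadjusted p under 0.05, which is 7.14%, 2.38% and 9.52% of them, against 17.0%, 4.25% and 7.01% of all genes. In fat, 23 of 42 collagen genes were higher in males, with a median of 0.02. Without the 3 marked males, 7 of 11 fibrillar genes (median 0.10) and 7 of 8 basement membrane genes (0.10) were higher in males. So were 20 of the 23 other genes (0.18). With all arrays, Col16a1 was 0.38 ± 0.15 higher in males (adjusted p = 0.161). Of the 897 genes called in fat, only 167 were higher in males. Among related genes in fat, Lum, which encodes lumican, was called lower in males (-1.64 ± 0.28), as were Postn (-1.21 ± 0.31), Plod2 (-1.12 ± 0.24) and Serpinh1, the collagen chaperone HSP47 (-0.84 ± 0.21). Epididymis markers, 4 of 5 called higher in males, and an adipocyte marker, 1 of 7 called lower, moved in the same comparison, and their part was not tested. The interaction of sex with risperidone called 0.0513% of all genes in fat and 0.0% in pancreas, liver and striatum, and no collagen gene in any of them. That of sex with olanzapine called 0.0% of all genes in each tissue, and no collagen gene. In these interactions 3 collagen genes in fat, 1 in pancreas, 0 in liver and 1 in striatum had an unadjusted p under 0.05 for risperidone, where 13.2%, 4.96%, 4.78% and 5.78% of all genes did. For olanzapine the counts in that order were 0, 2, 1 and 1, against 2.54%, 4.03%, 5.41% and 6.01% of all genes. A single collagen gene is 2.38% of the 42.

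In the striatum, the 42 collagen genes had a median of 0.00 under risperidone (23 higher, 19 lower) and -0.09 under olanzapine (15 higher, 27 lower), with medians of -0.00 over all genes for both. Col25a1, a transmembrane collagen of neurons, had the lowest p for risperidone. It ranged from 6.67 through 7.46 to 7.85 in risperidone-treated mice and from 7.42 through 7.87 to 8.37 in vehicle-treated mice, and 4 of 8 risperidone-treated values were below the whole vehicle range. Its difference was -0.52 ± 0.17 (unadjusted p = 0.00479 and adjusted p = 0.913, limma), and -0.37 ± 0.23 without the 7 arrays with high choroid plexus markers. Col28a1 differed by -0.35 ± 0.12, with 7 of 8 risperidone-treated values below the whole vehicle range (adjusted p = 0.913), and Col15a1 by 0.26 ± 0.12.

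Under olanzapine, Col13a1, a transmembrane collagen of cell junctions, ranged from 7.76 through 8.13 to 8.64, against 8.07 through 8.59 to 9.24 under vehicle. Its log2 fold change was -0.43 ± 0.15 (unadjusted p = 0.00716 and adjusted p = 0.299, limma), with -0.65 ± 0.20 among males and -0.21 ± 0.21 among females. The fibril-associated genes Col9a2 and Col16a1 followed, at -0.32 ± 0.12 and -0.33 ± 0.14. The type I chain Col1a1 and the type IV chain Col4a1 lay near vehicle, at -0.09 ± 0.12 and 0.03 ± 0.12. The basement membrane gene Col15a1 differed by 0.28, the highest of its class, and did not pass.

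Between olanzapine and risperidone in the striatum, Col25a1 was the collagen gene nearest the threshold. It ranged from 7.63 through 7.83 to 8.38 in olanzapine-treated mice and from 6.67 through 7.46 to 7.85 in risperidone-treated mice, which overlapped. The difference was 0.56 ± 0.17 (unadjusted p = 0.00259 and adjusted p = 0.0516, limma), just short of the call. It passed when any of 5 mice was left out (vehicle F2 or M3, risperidone F6 or F23, olanzapine M9). The adjusted p was then 0.0479, 0.0407, 0.0434, 0.0236 and 0.0271 in that order. Vehicle-treated mice enter this comparison only through the shared estimate of the spread. The difference did not pass when any other mouse was left out, with an adjusted p up to 0.109 (without risperidone F5). Nor did it pass in females alone (adjusted p = 0.234) or males alone (0.413). The doses were not the same, and the markers of striatal neurons moved the other way: all 5 measured were called lower under olanzapine than under risperidone, with means of 11.5 to 14.68 against 14.7 to 15.93. Choroid plexus markers were lower too, 3 of 6 called, with means of 7.8 to 10.48 under olanzapine and 8.09 to 12.24 under risperidone. Without the 7 arrays with high choroid plexus markers Col25a1 differed by 0.48 ± 0.22 (adjusted p = 0.272). Their part was not tested. Among related genes, Timp2, an inhibitor of matrix metalloproteinases, was called higher under olanzapine (0.99 ± 0.23), and Smad3, a TGF-beta mediator, and Adamts3, a procollagen propeptidase, were called lower (-0.96 ± 0.23 and -1.06 ± 0.30).

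None of the 6 lists of related genes held a called gene for either drug against vehicle in any tissue. The lowest p belonged to Tgfbr1, a TGF-beta receptor, in liver under olanzapine (-0.60 ± 0.17, adjusted p = 0.401) and to Tnxb, a tenascin of connective tissue, in fat under risperidone (-0.95 ± 0.28, adjusted p = 0.453), which did not pass.

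Whether core collagen genes varied with Col1a1 across mice was examined next. Col1a1 was set against 13 other core members in each tissue, 52 pairs in all, in fat without the 3 marked males because they formed a cluster apart. Pearson's r was positive for 9 of 13 pairs in fat, 11 in pancreas, 12 in liver and 10 in striatum, and ran from -0.54 to 0.56, but these pairs have Col1a1 in common. No pair passed for Pearson's r (lowest adjusted p = 0.169) or Spearman's rho (lowest adjusted p = 0.187) by permutation tests with 100000 permutations. In liver, Col1a1 and Col1a2, whose products join in 1 molecule, gave r = 0.44 (permutation p = 0.0283, adjusted p = 0.188) and rho = 0.53 (permutation p = 0.00851, adjusted p = 0.187) over 24 mice, and r = 0.39 without the 2 mice farthest from the median of Col1a1. Within sexes r was 0.37 in 12 males and 0.44 in 12 females. In fat the pair gave r = 0.53 over 21 mice (permutation p = 0.0123, adjusted p = 0.188) and 0.49 without the 2 farthest. In pancreas it gave r = 0.41 and rho = 0.17, which rested on the 2 farthest mice, as r without them was 0.01. Col4a1 and Col4a2, which share the window printed above, gave r between -0.25 in liver and 0.37 in striatum, and none of the 4 tissues passed (lowest adjusted permutation p = 0.29 for r and 0.15 for rho).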

How the data were processed

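The authors deposited log2 values made by RMA (background correction, quantile normalization and 1 value per transcript cluster). Affymetrix Expression Console 1.4 is named in the processing notes of the submitters. A genome build, and whether all tissues were normalized in 1 run, are not given in the sources used here. Labelling used the WT PLUS kit for liver and striatum, and the Pico kit for fat and pancreas. Of 22206 transcript clusters, 19572 carry 1 gene symbol in the platform annotation, 0 several and 2634 none. Clusters of a gene were averaged (55 genes). Each collagen gene has 1 cluster; Col7a1, Col12a1 and Col21a1 were not analysed here.

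Each tissue was fitted alone with limma 3.58.1 in R 4.3.3, over 24 arrays, with treatment and sex as terms, no filter, and Benjamini-Hochberg adjustment over 19505 genes. The script was tested on simulated data for olanzapine against vehicle. A simulated log2 change of 0.5 was called for 5.97% of changed genes in fat, 0.0% in pancreas, 19.4% in liver and 35.8% in striatum. For a change of 1.0 these shares were 55.2%, 32.8%, 85.1% and 92.5%, so changes of such sizes could go uncalled. Intervals are 95%. Correlations were computed in Python 3.11.15 with numpy 2.4.6, with exact permutation tests for fewer than 10 mice. Named genes were the 14 core collagens measured, every collagen gene called, the 3 with the lowest p per drug and tissue, and list members that passed (up to 4 per list) or the 2 with the lowest p; the values of any other gene named were seen before it was chosen. The core genes were Col1a1, Col1a2, Col3a1, Col5a1, Col5a2, Col4a1, Col4a2, Col15a1, Col18a1, Col6a1, Col6a2, Col6a3, Col8a1 and Col14a1. The members, lists and tests were chosen with earlier results of these data known. Alternatives were other scalings and variance models, a filter on the dimmest 25% of genes, single clusters, array weights, no sex term, only the 16 mice of the groups compared, each sex alone and each mouse left out. The filter on the dimmest genes left out some genes named above for a low p. These were Col5a1 and Col8a1 in fat, Col5a1, Col8a1 and Col19a1 in pancreas, and Col5a3 and Col6a4 in liver. Arrays have no read depth, so their number limits precision.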

Additional observations from a re-analysis of the deposited data

Results flagged for a closer look

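For the collagen genes named here, each treatment group of 8 mice in each tissue was checked for a mouse set apart from the rest, in 213 groups, and 11 values were found, where chance flags about 1 in 20 groups. In fat, Col6a4 of olanzapine-treated female F25 was 10.89, with the next value at 8.08, and Col6a2 of olanzapine-treated male M9 was 6.85, below the next at 7.87. In pancreas, Col5a1 of risperidone-treated female F4 was 6.08, Col4a2 of risperidone-treated male M4 was 5.95 and Col19a1 of olanzapine-treated male M25 was 6.55. The hepatocyte marker mean of that female F4 was 16.22. In liver, Col1a1 of olanzapine-treated female F26 was 7.57, Col6a1 of female F7 was 5.38 and Col5a3 of male M26 was 5.9. In striatum, Col1a1 of vehicle-treated female F20 was 8.28, Col16a1 of vehicle-treated female F2 was 8.22 and Col5a2 of risperidone-treated male M5 was 6.21.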

How the results depend on the processing

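Of the alternative values of the main results (counts called and medians among them), 1181 kept their side of the threshold or stayed within the spread, and 17 did not. In striatum, olanzapine against risperidone called Col25a1 with trended and robust variances (1 gene) and without the sex term (1). The gene was also called without the dimmest genes (1) and with array weights (1). Leaving out each mouse called 0 to 1 gene. Col25a1 was called in 9 of all 36 settings, and its adjusted p ran from 0.0075 to 0.413. In fat, array weights called 1 gene between the sexes (Col16a1) and 2 for the interaction of sex with risperidone (Col3a1 and Col6a4). Leaving out each mouse gave 0 to 1 between the sexes, with 1 without risperidone F6. For the interaction it gave 0 to 2, with 2 without risperidone M24. Without M24, the only risperidone-treated males left were the 3 with epididymis markers above 15. In the same tissue the median for risperidone was -0.37 among males and 0.069 without the 3 arrays with epididymis markers above 15; Col6a4 changed sign, to -0.10, without the 5 arrays above 11, where the interaction could not be fitted. The olanzapine median in liver was 0.012 among females, and the risperidone median in striatum was 0.11 without arrays with choroid plexus markers above 10. The 4 liver genes called between the sexes were called in all 31 settings, with Col14a1 as well without vehicle M21 (5 genes). The marker-based settings were chosen after seeing the data, and the causes were not tested. No paired analysis was possible because the treatments of a tissue share no mouse number.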
